A study of Mus musculus with 16 samples.

Results

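Succinate dehydrogenase (SDH, complex II) is the enzyme of the citric acid cycle that is also part of the mitochondrial respiratory chain. It oxidizes succinate to fumarate and passes the electrons to ubiquinone. The flavoprotein subunit Sdha holds a covalently bound FAD, the subunit Sdhb holds iron-sulfur clusters, and Sdhc and Sdhd anchor both in the inner membrane and form the ubiquinone site. Dedicated assembly factors mature the catalytic subunits before they join the anchor. All 8 genes are nuclear, and loss of SDH subunit genes is known to cause paraganglioma in people.

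The 4 subunit genes and 4 assembly factor genes were chosen by name from the 24485 genes measured, and all 8 passed the expression filter used in every test. Messenger RNA was sequenced from 16 libraries of immortalized mouse embryonic fibroblasts, which are cultured connective tissue cells. The exp line was R26M2rtTA/+;TetOcre;Sdhcfl/fl, in which both copies of Sdhc are floxed. The ctl line was R26M2rtTA/+;TetOcre;Sdhcfl/wt, with a floxed and a wild-type copy. Both lines therefore carry the doxycycline-responsive transactivator from the Rosa26 locus and a Cre recombinase driven by the Tet operator, and a floxed Sdhc copy is exposed to Cre in the ctl line too. All cells were grown in low-glucose DMEM with serum, and doxycycline was used at 1 µg/mL. Each line has 3 biological replicates at day 16 of induction and 1 library at each of 5 other times (day 0, day 5, day 9, day 12 and day 20). The study asked how expression changed as Sdhc was rearranged. Each genotype is represented by 1 line, so effects of genotype and of line cannot be told apart, and p-values measure the spread between libraries of these lines. Doxycycline and time in culture cannot be told apart either.

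Values are FPKM as deposited, that is, fragments scaled to gene length and to the fragments mapped in the library, and totals of 18121520 to 42486438 reads in genes stood behind the libraries. Of 10 fibroblast markers, 10 in exp and 9 in ctl averaged at least 1 FPKM. Their summed level was 4630 to 5350 FPKM in exp and 4120 to 4410 FPKM in ctl. Leukocyte and endothelial markers summed to 3.42 to 6.3 FPKM in exp and 5.03 to 7.09 FPKM in ctl. Most of that was Cd68, at 2.59 to 5.91 FPKM in exp and 4.65 to 6.32 FPKM in ctl. Cd68 was the only gene of that list tested. It was lower in exp at day 16 (-0.66, limma adjusted p = 0.0336) and over days 5 to 20 (-0.55, limma adjusted p = 0.000574). Epithelial and mesothelial markers summed to 62.6 to 757 FPKM in exp and 98.7 to 128 FPKM in ctl. The lines differed in which markers they held. Upk3b ranged over 22.9 to 455 FPKM in exp and 0.115 to 0.611 FPKM in ctl, Wt1 over 2.1 to 28.2 FPKM in exp and 0 to 0.0202 FPKM in ctl, and Msln over 15.3 to 131 FPKM in exp and 84.8 to 121 FPKM in ctl. Among fibroblast markers Col1a2 ranged over 373 to 721 FPKM in exp and 80.4 to 103 FPKM in ctl. Pdgfra and S100a4 were the fibroblast markers called lower in exp. Pdgfra ranged over 15.2 to 31 FPKM in exp and 47.7 to 59.2 FPKM in ctl, and S100a4 over 529 to 1610 FPKM in exp and 946 to 1300 FPKM in ctl. Of 7 epithelial and mesothelial markers tested over days 5 to 20, 5 were higher in exp and 0 lower, and of 10 fibroblast markers 4 were higher and 2 lower (limma, adjusted p under 0.05). Of all genes in that comparison 17.3% were higher and 16.2% lower. At day 16, 1 of the 7 was higher and 0 lower, and 3 of the 10 were higher and 2 lower. The shares of all genes at day 16 were 3.1% higher and 3.01% lower. The part of these differences between the lines in the SDH values was not tested. At day 16 the epithelial and mesothelial markers summed to 757, 62.6 and 70.1 FPKM in exp replicates 1, 2 and 3, against 117, 125 and 128 FPKM in ctl, and at day 20 to 677 FPKM in exp and 117 FPKM in ctl. Exp replicate 1 also stood apart over all genes tested: its log2 levels correlated at r = 0.9513 and 0.9534 with replicates 2 and 3, which correlated at 0.9953 with each other. In ctl replicate 1 correlated at 0.9785 and 0.9805 with replicates 2 and 3, and those at 0.9973 with each other. In the exp day 0 library short genes were high, which is described below with the members it touches.

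The genes lie on 7 chromosomes of the mouse build mm9. Sdhc occupies chr1:173057296-173080734 on the minus strand, with 6 exons in its longest coding transcript, and Sdhaf4 (older name 1110058L19Rik) chr1:24002778-24012495, also minus. Sdha lies at chr13:74459702-74487728, Sdhb at chr4:140517118-140535108, Sdhd at chr9:50404443-50411954, Sdhaf1 at chr7:31106430-31107394, Sdhaf2 at chr19:10575003-10599699 and Sdhaf3 (older name Acn9) at chr6:6906004-6991770. For each of the 8 genes the longest coding transcript was searched from its start to shortly past the stop codon. None aligned elsewhere in the genome over at least 200 bases at 90% identity or more. The rest of the untranslated region after the stop and other transcripts were not searched. Sdhaf1 overlaps E130208F15Rik on the other strand, and the span of Sdha holds the pseudogene Gm16125 on the other strand. The strand setting of the counting is not given in the sources used here, so reads of those overlapping pairs cannot be told apart. A gene-level value does not show which exons the reads came from, and which exons of Sdhc are floxed is not stated, so a transcript shortened by Cre could still add to the Sdhc value.

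Promoter sequence was available for 7 of the 8 genes in the RefSeq table (build GRCm38.p6). Motifs were counted on both strands in the 250 bases before the annotated start. A subset of 4 is shown: Sdha, Sdhb and Sdhd, partners of Sdhc in the complex, and Sdhaf4, the other gene that differed between the lines at day 16. Capitals mark matches to the NRF1 motif (GCGCA, any base, then GCGC) in Sdha and Sdhd, the ETS motif CCGGAAG in Sdhd, and the SP1 motif GGGCGG in Sdhb and Sdhaf4, in either orientation. NRF1 and ETS-family factors are known regulators of nuclear genes for mitochondrial proteins.
Sdha (chr13:74350241-74350490, minus): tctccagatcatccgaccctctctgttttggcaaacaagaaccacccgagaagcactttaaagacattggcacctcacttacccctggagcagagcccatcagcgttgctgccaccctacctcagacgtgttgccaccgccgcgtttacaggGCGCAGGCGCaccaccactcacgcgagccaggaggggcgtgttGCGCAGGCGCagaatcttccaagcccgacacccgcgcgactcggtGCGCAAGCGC
Sdhb (chr4:140961021-140961270, plus): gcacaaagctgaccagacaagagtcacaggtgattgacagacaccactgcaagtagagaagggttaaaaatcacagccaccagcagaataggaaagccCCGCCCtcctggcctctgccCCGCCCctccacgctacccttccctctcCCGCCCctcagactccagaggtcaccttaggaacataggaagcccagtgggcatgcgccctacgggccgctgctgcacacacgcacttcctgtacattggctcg
Sdhd (chr9:50603850-50604099, minus): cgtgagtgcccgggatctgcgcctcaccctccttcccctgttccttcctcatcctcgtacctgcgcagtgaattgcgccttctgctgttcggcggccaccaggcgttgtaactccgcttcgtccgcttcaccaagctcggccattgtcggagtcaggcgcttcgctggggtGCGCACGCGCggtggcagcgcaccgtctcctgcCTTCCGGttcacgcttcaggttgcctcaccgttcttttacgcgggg
Sdhaf4 (chr1:24005641-24005890, minus): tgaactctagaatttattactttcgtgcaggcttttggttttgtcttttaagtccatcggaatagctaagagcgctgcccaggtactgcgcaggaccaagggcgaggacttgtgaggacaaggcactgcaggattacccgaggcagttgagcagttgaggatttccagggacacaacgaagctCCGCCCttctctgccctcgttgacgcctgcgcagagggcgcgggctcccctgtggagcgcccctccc
The NRF1 motif was in 2 of the 7 promoters, with 3 matches in Sdha and 1 in Sdhd, and in 3.74% of 32851 promoters of the same length. The ETS motif was in 3 of the 7 (Sdhd, Sdhaf2 and Sdhaf3) and in 6.91% of all promoters. The SP1 motif was in 5 of the 7 and in 32.7% of all, and a pair of its matches overlapped in Sdhaf3. The YY1 motif AAGATGGC was in 0 of the 7 and in 1.56% of all. The part of these motifs in the values below was not tested.

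Levels per length, in FPKM, ran in the same order in both lines by the median over 8 libraries. Sdhd was highest, with a median of 104 FPKM in exp and 96.3 FPKM in ctl, and it was above Sdha in all 8 libraries of each line. Sdha (71.8 FPKM in exp, 73.5 FPKM in ctl), Sdhc (43.1 FPKM in exp, 51.6 FPKM in ctl) and Sdhb (27.2 FPKM in exp, 26.9 FPKM in ctl) followed. Sdhc exceeded Sdha in the day 0 library of each line and was below it in the other 7. Sdhb and Sdhc overlapped in exp, where Sdhc was higher in 7 of 8 libraries, and did not overlap in ctl. The assembly factors came below the subunits: Sdhaf4 at 15.9 FPKM in exp and 16.2 FPKM in ctl, Sdhaf2 at 15.3 FPKM in exp and 14.2 FPKM in ctl, Sdhaf1 at 9.2 FPKM in exp and 9.35 FPKM in ctl, and Sdhaf3 at 7.46 FPKM in exp and 6.67 FPKM in ctl. Sdhaf4 and Sdhaf2 overlapped in both lines and kept their order in 5 of 8 exp libraries and 8 of 8 ctl libraries. Sdhaf1 and Sdhaf3 overlapped in range too.

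**Figure D1:**
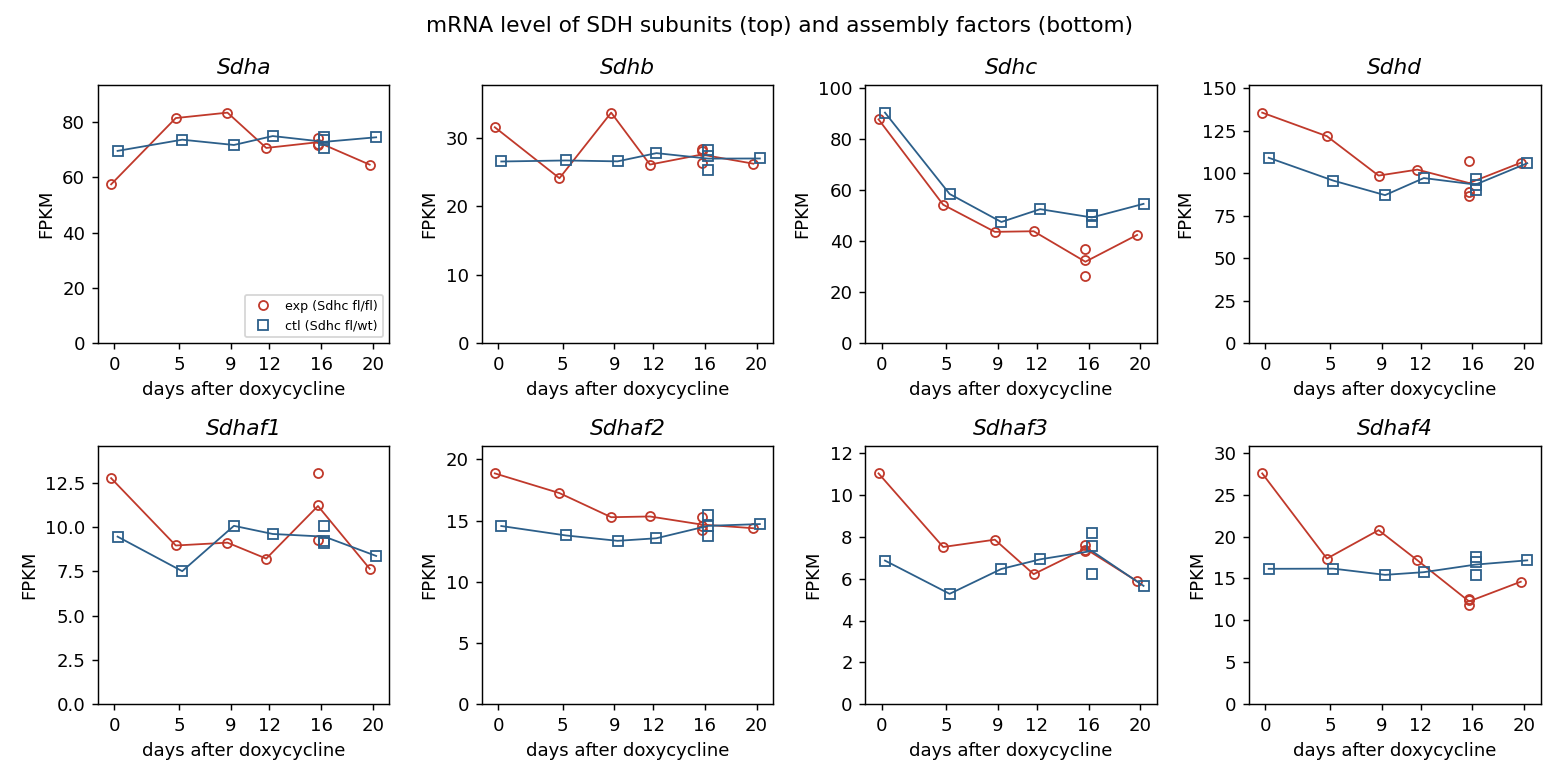
FPKM (y axis) of the 4 subunits (top row) and 4 assembly factors (bottom row) against days after doxycycline (x axis), 1 point per library, with lines through the daily means of exp and ctl. Sdhc starts at 87.8 FPKM in exp and 90.5 FPKM in ctl and is at most 54.4 FPKM in exp and 58.6 FPKM in ctl on later days.

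Sdhc, the floxed membrane anchor subunit, had lower mRNA in exp than in ctl, but much of its change over time was shared by the lines. In exp it had 87.8, 54.4, 43.8 and 44.0 FPKM at days 0, 5, 9 and 12, then 36.9, 32.8 and 26.5 FPKM in the 3 replicates of day 16 and 42.5 FPKM at day 20. In ctl it had 90.5, 58.6, 47.6 and 52.6 FPKM at days 0, 5, 9 and 12, then 50.5, 50.1 and 47.5 FPKM at day 16 and 54.7 FPKM at day 20. The 3 exp libraries of day 16 were the lowest of all 16, and the groups did not overlap at that day. The exp value was below its ctl partner in 8 of 8 same-day pairs, matched at day 16 by replicate number only. How many of all genes showed such an order or lack of overlap was not counted. Of all genes, 33.4% were called in either direction between the lines over days 5 to 20 (limma).

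The ratio of exp to ctl for Sdhc was 0.971 at day 0 (95% counting interval 0.919 to 1.03), 0.928 at day 5, 0.919 at day 9 and 0.836 at day 12. It was 0.729, 0.654 and 0.557 in the 3 numbered pairs of day 16, where the interval of the last was 0.52 to 0.597, and 0.777 at day 20 (0.724 to 0.835). The intervals cover counting error only, from 1162 to 2064 Sdhc reads per exp library and 1435 to 3417 per ctl library. The gap between the lines was widest at day 16 and smaller in the single day 20 pair. The exp libraries with high epithelial and mesothelial markers, replicate 1 of day 16 (757 FPKM) and day 20 (677 FPKM), had Sdhc differences of -0.45 and -0.36 in log2. Replicates 2 and 3 of day 16 (62.6 and 70.1 FPKM) had -0.60 and -0.82. The exp libraries of days 0, 5, 9 and 12 (233, 219, 119 and 214 FPKM) had smaller differences, of -0.04, -0.11, -0.12 and -0.25. The part of the cells behind those markers in the Sdhc values was not tested.

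At day 16 Sdhc averaged 32 ± 5.23 FPKM in exp and 49.4 ± 1.66 FPKM in ctl (SD, n = 3 each). The difference was -0.62 ± 0.12 (SE) on the log2(FPKM + 1) scale, a fold of 0.65 with a 95% interval of -0.92 to -0.32 in log2 (limma, Benjamini-Hochberg adjusted p = 0.0434 over 12533 genes). Leaving out 1 of the 6 libraries in turn gave -0.73 to -0.49. Without exp replicate 1 Sdhc was still called, at an adjusted p of 0.0126, but dropping any of the other 5 ended the call, at 0.0692 to 0.15. The largest of these differences, -0.73, was that without exp replicate 1. In bulk RNA fewer cells with an intact gene and less RNA in every cell cannot be told apart. Over days 5 to 20 together, with each day compared within itself, Sdhc was 0.39 lower on the log2 scale (-0.39 ± 0.09, fold 0.766, adjusted p = 0.0085). Without day 16 that difference was -0.21 (adjusted p = 0.0698).

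Sdhaf4, which binds Sdha after its FAD is attached and helps it join Sdhb, was the other member called at day 16. In exp it had 27.5, 17.4, 20.8 and 17.2 FPKM at days 0, 5, 9 and 12, 12.5, 11.8 and 12.5 FPKM at day 16, and 14.6 FPKM at day 20. In ctl it had 16.1, 16.2, 15.4 and 15.7 FPKM at days 0, 5, 9 and 12, 15.5, 17.5 and 17.0 FPKM at day 16, and 17.2 FPKM at day 20. Exp was above ctl at days 0 to 12 and below it at days 16 and 20, while ctl stayed between 15.4 and 17.5 FPKM throughout. At day 16 the groups did not overlap, a pattern that was not counted over all genes. The difference was -0.41 ± 0.07 in log2 (fold 0.752, interval -0.58 to -0.25, limma adjusted p = 0.0263). The call was lost on leaving out exp replicate 2 or 3 or ctl replicate 2 or 3, at -0.42 to -0.38 and an adjusted p of 0.0941 to 0.135. It was -0.53, -0.41 and -0.29 in replicate pairs 2, 3 and 1. Over days 5 to 20 it was -0.12 ± 0.10 (adjusted p = 0.389), and without day 16 it was 0.10, so the difference at day 16 was not shared by the days before it.

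The other 6 genes were not called at day 16, and the intervals are narrow for most of them. Sdha, which holds the FAD and oxidizes succinate, averaged 72.6 ± 1.42 FPKM in exp and 72.7 ± 2.05 FPKM in ctl. Its difference was -0.00 ± 0.06 in log2, with an interval of -0.14 to 0.13. Sdhb, the iron-sulfur subunit, averaged 27.6 ± 1.07 FPKM in exp and 27.0 ± 1.47 FPKM in ctl, a difference of 0.03 (interval -0.13 to 0.19). Sdhd, the second membrane anchor and the direct partner of Sdhc, averaged 94.2 ± 11.3 FPKM in exp and 93.3 ± 3.34 FPKM in ctl, a difference of 0.01 (interval -0.23 to 0.24). So the 3 partners of Sdhc in the complex showed no difference at mRNA level of the size seen in Sdhc, whose estimate of -0.62 lies outside each of these intervals.

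Among the other assembly factors at day 16, Sdhaf2, which aids attachment of FAD to Sdha, averaged 14.7 ± 0.56 FPKM in exp and 14.6 ± 0.874 FPKM in ctl. Sdhaf3, a LYR-motif protein that helps Sdhb maturation, averaged 7.44 ± 0.153 FPKM in exp and 7.33 ± 0.984 FPKM in ctl. Over all days it had 75 to 191 reads per library. Sdhaf1, another LYR-motif protein needed for iron-sulfur transfer to Sdhb, averaged 11.2 ± 1.87 FPKM in exp and 9.46 ± 0.506 FPKM in ctl, a difference of 0.21 ± 0.12 (adjusted p = 0.376). That difference was 0.33 without exp replicate 1 (adjusted p = 0.0692) and 0.10 without exp replicate 2 (0.718). Over the members, 0 were higher and 2 lower (25%) at day 16, against 6.1% of all genes tested called in either direction, 3.1% higher and 3.01% lower. Over days 5 to 20, 0 were higher and 1 lower (12.5%), against 33.4% of all genes called in either direction. The median difference over the 8 genes was 0.01 at day 16 and 0.04 over days 5 to 20, against -0.01 and -0.00 over all genes.

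**Figure D2:**
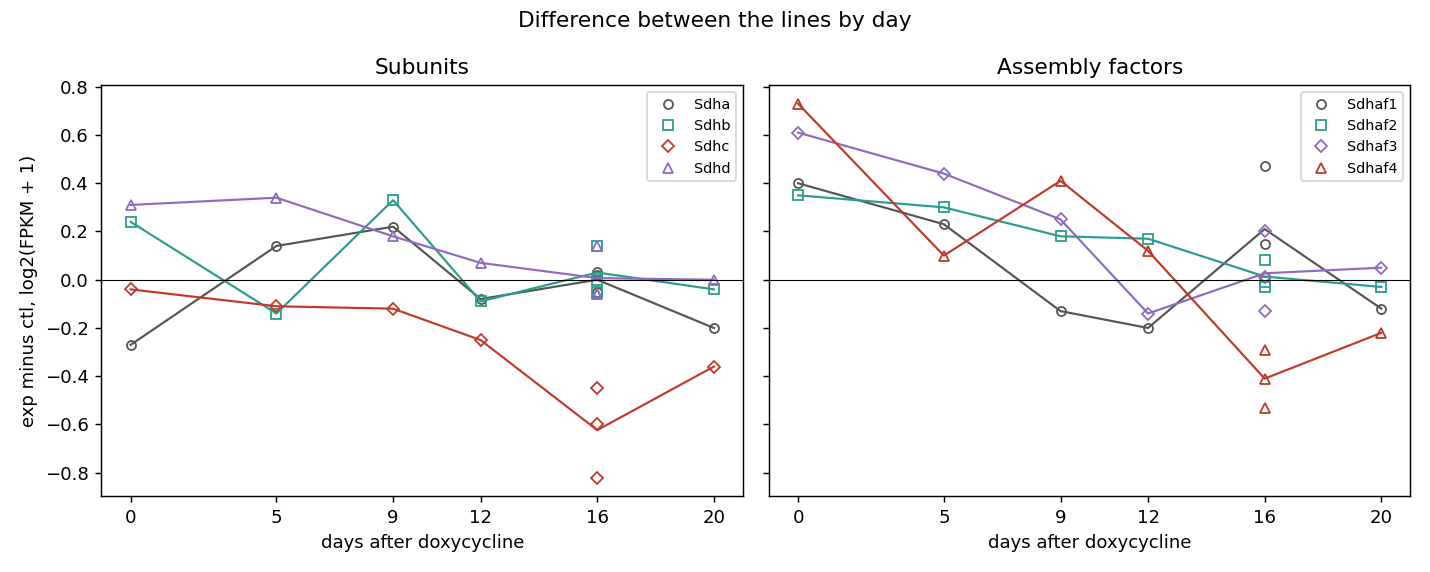
Difference exp minus ctl in log2(FPKM + 1) (y axis) by days after doxycycline (x axis) for subunits (left) and assembly factors (right), with 1 point per same-day pair and a line through the daily means. Sdhc runs down from -0.04 at day 0 to between -0.45 and -0.82 at day 16, and Sdhaf4 from 0.73 to between -0.29 and -0.53.

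**Figure D3:**
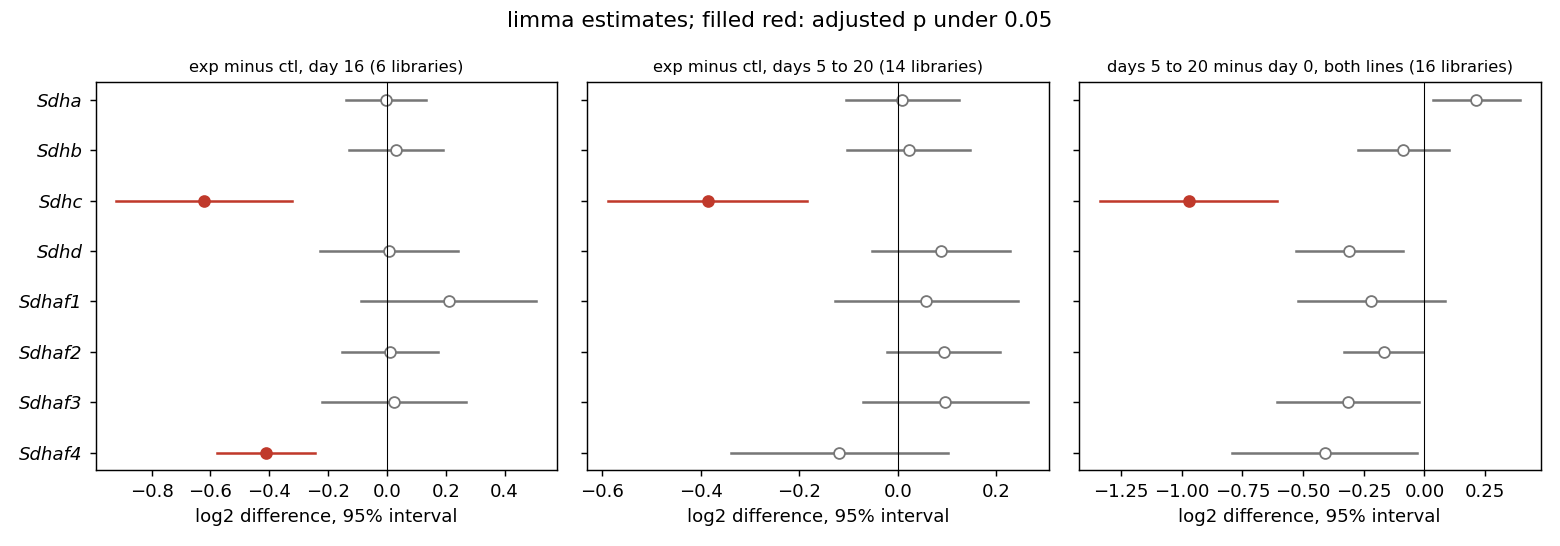
Estimates in log2(FPKM + 1) (x axis) with 95% intervals for the 8 genes (y axis) in 3 limma comparisons (exp minus ctl at day 16, exp minus ctl over days 5 to 20, and days 5 to 20 minus day 0 in both lines), filled red where the adjusted p was under 0.05. Sdhc is called at day 16, over days 5 to 20 and for the change since day 0 in both lines, and Sdhaf4 is called at day 16.

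Ratios of Sdhc to its partners were taken within each library, where the library total cancels, and they did not all order the lines alike. The ratio of Sdhc to Sdhd, both anchors, was 0.648 at day 0 in exp and 0.306 to 0.447 later, against 0.829 at day 0 in ctl and 0.517 to 0.612 later. Later values of the lines did not overlap, but exp was the lower at day 0 already. The ratio of Sdhc to Sdha was 1.53 at day 0 in exp and 0.357 to 0.669 later, against 1.3 at day 0 in ctl and 0.647 to 0.797 later, so that exp was the higher at day 0. By the length used below, Sdhc is shorter than Sdha, and short genes were high in the exp day 0 library. That excess does not cancel in the ratio, and its part in the day 0 order was not tested. The day 16 exp libraries had Sdhc to Sdha ratios of 0.515, 0.455 and 0.357, against 0.68, 0.712 and 0.647 for the ctl libraries. The ratio of Sdhc to Sdhb was 2.78 at day 0 in exp and 0.944 to 2.25 later, against 3.41 at day 0 in ctl and 1.77 to 2.19 later. The lines overlapped in that ratio, with exp above ctl at day 5 (2.25 in exp, 2.19 in ctl) and below it at day 16 (exp libraries 1.4, 1.16 and 0.944, against ctl libraries 1.85, 1.77 and 1.87).

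Whether the difference between the lines grew with time was tested by a slope per 20 days, and 0 of 8 members passed (limma). An unadjusted p under 0.05 was seen for 5 of the 8 and for 1388 of 12559 genes (11.1%), and 0 members passed by limma voom on recovered reads. Of all genes tested 0.207% were called, 0.183% in the direction above 0 and 0.0239% below it. The slope difference was -1.11 ± 0.22 for Sdhaf4 (adjusted p = 0.085), -0.65 ± 0.20 for Sdhaf3 (0.264), -0.60 ± 0.23 for Sdhc (0.384) and -0.43 ± 0.12 for Sdhaf2 (0.225). All 8 estimates were below 0, with a median of -0.42 against -0.06 over all genes.

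Over all genes, the difference between the lines at day 0 varied with gene length. A link of length to the slopes themselves was not tested. Length here is that implied by the steps between FPKM values, not an annotated transcript length. All genes tested were divided by this length into 4 equal groups. At day 0, from the shortest group to the longest, the median of exp minus ctl was 0.32, 0.10, 0.01 and -0.06 in log2, while on later days it lay between -0.06 and 0.07 in every group. The exp day 0 library differed from later exp libraries by 0.36 in the shortest group, and the ctl day 0 library from later ctl libraries by 0.03. The shortest group holds 6 of the 8 genes, all but Sdha and Sdhaf2. By this length Sdhc was 0.412 and Sdhaf3 0.192 of Sdha. Their longest annotated coding transcripts have 3171 and 3114 bases, against 2900 for Sdha, so the sources differ for these genes. At day 0 exp minus ctl was 0.73 for Sdhaf4, 0.61 for Sdhaf3, 0.40 for Sdhaf1, 0.35 for Sdhaf2, 0.31 for Sdhd, 0.24 for Sdhb, -0.04 for Sdhc and -0.27 for Sdha. Sdhaf4 and Sdhaf3 were thus at least 1.5-fold higher in exp at day 0, as were 13.7% of all genes, and no member was as much lower, as were 5.99%. With the median of each of 20 length classes set to 0 in every library, the slope difference was -0.73 for Sdhaf4, -0.42 for Sdhaf2, -0.32 for Sdhc, -0.27 for Sdhaf3 and -0.17 for Sdhd, with a median of -0.22 over the 8. The estimates of Sdha, Sdhb and Sdhaf1 were then above 0, so the members no longer all lay in the same direction. At day 16 that centring left Sdhc at -0.62 (adjusted p = 0.0339) and Sdhaf4 at -0.40 (0.0345; 0.056 when the replicate numbers were also used as a block).

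**Figure D4:**
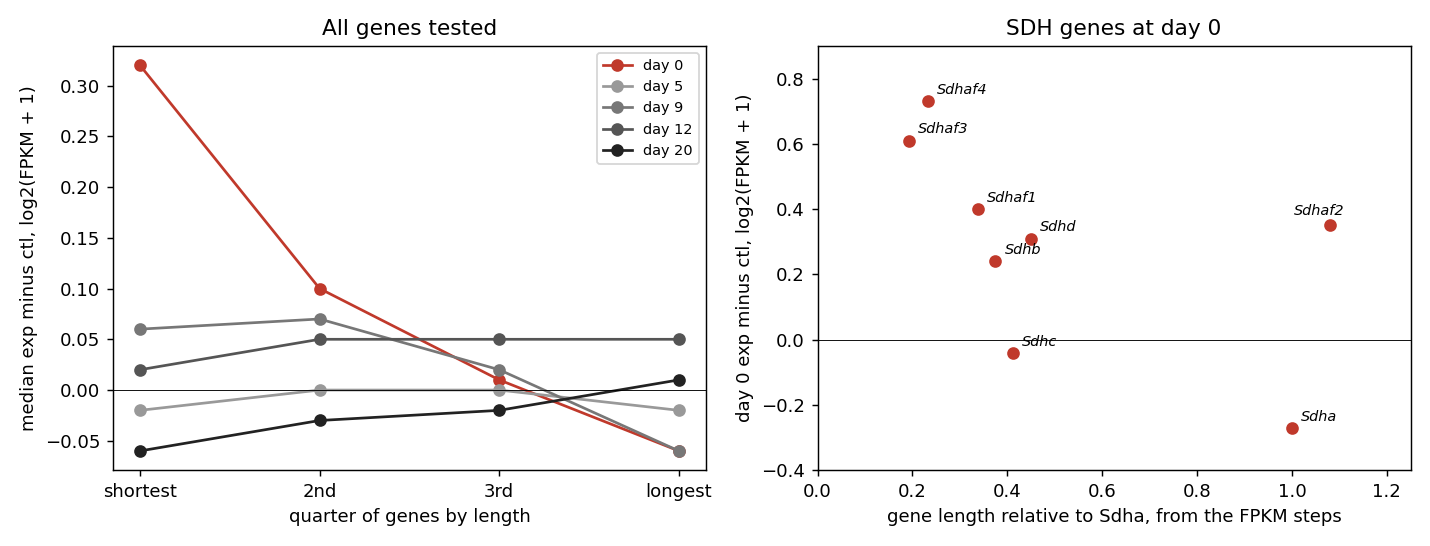
Left: median of exp minus ctl in log2(FPKM + 1) (y axis) for 4 groups of all genes by length (x axis), 1 line for each day but day 16. Right: the same difference at day 0 (y axis) for the 8 SDH genes against gene length relative to Sdha (x axis), where the 6 shorter genes range from -0.04 for Sdhc to 0.73 for Sdhaf4. Lengths are those implied by the steps between FPKM values.

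Sdhc mRNA fell after day 0 in both lines, by the largest of the 8 estimates. Its later median was 48.4% of day 0 in exp (30.1 to 61.9%) and 55.9% in ctl (52.5 to 64.8%), and day 0 was above all 7 later libraries in each line. The shared change was -0.97 ± 0.17 in log2 (fold 0.51, interval -1.34 to -0.61, limma adjusted p = 0.0262). It is 1 of 23 genes called, 0.183% of 12559, all of them lower. Day 0 has 1 library per line, and the call did not hold with the replicate number as a block (adjusted p = 0.0792) or after length-class centring (-0.78, adjusted p = 0.0832). The size was near the same in the ctl line alone after centring, -0.76, and in the exp line alone, -0.82, but neither was called (adjusted p = 0.371 and 0.239).

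The change since day 0 did not pass a test of difference between the lines for any member: 0 of 8 and 0 of 12559 genes were called (0%), with 1 member and 1355 genes (10.8%) at an unadjusted p under 0.05, and 0 by limma voom. The count over all genes was 187 with the replicate block and 136 with no filter on low values, with no member among them. That difference was -0.34 for Sdhc (interval -1.08 to 0.39) and -0.85 ± 0.30 for Sdhaf4 (adjusted p = 0.293). Sdhc was thus called lower in exp at matched days, and its change since day 0 was not called as different between the lines.

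A gap in day 0 as wide as that of Sdhc was seen in few genes. Day 0 was above all 7 later libraries of both lines in 663 of 12559 genes (5.28%), among them Sdhc and Sdhd, and below them in 240 (1.91%), among them Sdha. It was at least 1.5-fold above them, on FPKM + 1, in 21 genes (0.167%). Sdhc was 1 of the 21, 14 were immediate-early or serum-response genes such as Fos, Jun and Egr1, and 6 were microRNA or small nucleolar RNA genes, groups named after their values were seen. Fos, a growth-factor-induced transcription factor, had 1090 FPKM at day 0 in exp and 22.4 to 246 FPKM later, against 346 FPKM at day 0 in ctl and 5.95 to 162 FPKM later. The part of what moved these genes in the change of Sdhc was not tested.

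The other members had smaller estimates since day 0 and were not called. In exp, Sdhd had 136 FPKM at day 0 and 86.5 to 122 FPKM later, against 109 FPKM at day 0 and 87.1 to 106 FPKM later in ctl, a shared estimate of -0.31 ± 0.10 (adjusted p = 0.181). Sdha lay in the other direction, with 57.4 FPKM at day 0 and 64.5 to 83.3 FPKM later in exp, against 69.5 FPKM at day 0 and 70.4 to 74.8 FPKM later in ctl (0.21 ± 0.08, adjusted p = 0.232). The later median of Sdhaf4 was 53.1% of day 0 in exp and 100% in ctl. Sdhb was at 83.5% in exp and 102% in ctl, Sdhaf1 at 71.5% in exp and 97.7% in ctl, Sdhaf2 at 81% in exp and 94.7% in ctl, and Sdhaf3 at 67.1% in exp and 94.3% in ctl.

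**Figure D5:**
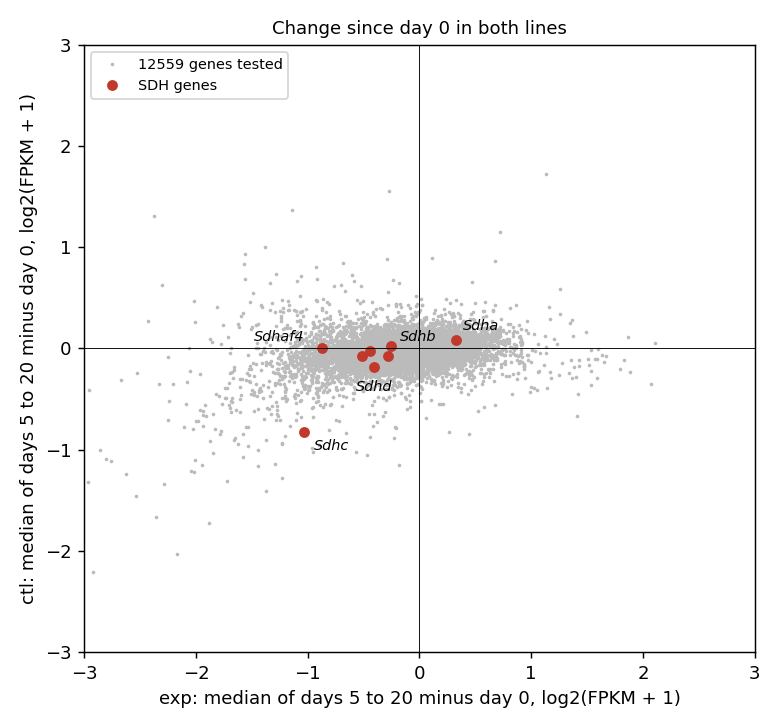
Median of days 5 to 20 minus day 0 in log2(FPKM + 1), exp (x axis) against ctl (y axis), for all genes tested (grey) and the 8 SDH genes (red); 7 genes lie outside the axes. Sdhc sits at -1.03 in exp and -0.83 in ctl, and Sdhaf4 at -0.87 in exp and 0.00 in ctl.

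By the spread of each gene's own profile around its mean over the 16 libraries, Sdhc moved by a root mean square of 0.42 in log2 and Sdhaf4 by 0.27. Among 9744 genes with a mean of at least 5 FPKM, the profiles nearest to that of Sdhc were Bnip3l, a mitophagy receptor, at a distance of 0.22, Mir3057 (0.25), S100a10 (0.25), the calcium-binding protein S100a4 (0.26) and Mir7657 (0.26). Bnip3l had 67.7 FPKM at day 0 and 34.6 to 57.9 FPKM later in exp, against 58.7 FPKM at day 0 and 46.6 to 63.1 FPKM later in ctl. The nearest to Sdhaf4 were the minor-spliceosome factor Scnm1 (0.10), the prefoldin subunit Pfdn5 (0.11) and the inositol hexakisphosphate kinase Ip6k2 (0.11). Pfdn5 had 49.1 FPKM at day 0 in exp and 27.8 FPKM at day 0 in ctl, and Sdhaf4 likewise 27.5 FPKM in exp and 16.1 FPKM in ctl.

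Genes that work beside SDH were counted by lists. At day 16 none of the 14 other citric acid cycle enzymes, 14 iron-sulfur assembly genes, 13 ubiquinone synthesis genes, 4 FAD supply genes tested or the succinate carrier Slc25a10 was called by limma or limma voom, with 3, 1, 1, 1 and 0 of them at an unadjusted p under 0.05. Of all genes at day 16, 6.1% were called and 22.5% had an unadjusted p under 0.05. Over days 5 to 20, 2 of the 14 cycle enzymes were lower and 0 higher: Ogdh, the E1 subunit of 2-oxoglutarate dehydrogenase (-0.22 ± 0.05, adjusted p = 0.0068), and Mdh2, mitochondrial malate dehydrogenase (-0.27 ± 0.08, 0.0324). The median of the list was -0.03 against -0.00 over all genes, and 16.2% of all genes were lower and 17.3% higher.

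Of the 14 iron-sulfur genes, 2 were higher, the cysteine desulfurase Nfs1 (0.20 ± 0.05, adjusted p = 0.0065) and the late-acting Isca2 (0.35 ± 0.11, 0.0377), and 1 was lower, Iba57 (-0.33 ± 0.08, 0.0086). Of the 13 ubiquinone genes, 1 was higher, Coq10b (0.24), and 3 were lower: Coq2, which joins ring and tail (-0.30, adjusted p = 0.0203), Coq5 (-0.20) and Coq7 (-0.26, 0.0033). Of 5 FAD supply genes 1 was higher, the riboflavin transporter Slc52a3 (0.32), and 2 were lower, the FAD synthase Flad1 (-0.21) and the mitochondrial carrier Slc25a32 (-0.34). Shares of genes called in these lists were 14.3% of the cycle enzymes, 21.4% of the iron-sulfur genes, 30.8% of the ubiquinone genes and 60% of the 5 FAD supply genes, against 33.4% of all genes. No gene of these lists was called for the slope or since day 0, by limma or by limma voom.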

How the data were processed

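The authors deposited 1 table of FPKM per gene for each of 16 libraries. The submitters' processing notes name mm9 and Bowtie2 2.2.3; the labels' protocols name mRNA libraries (TruSeq v2) from total RNA, and the sources used here do not give the read counter, its annotation or its strand setting. FPKM divides by gene length and library total, so abundant genes affect others. Of 24485 IDs, 24416 matched a symbol. FPKM steps gave whole reads for 18966 genes, at most 0.000669 read from whole numbers (tolerance 0.02). Differences were fitted with limma 3.58.1 (R 4.3.3; trend, robust) on log2(FPKM + 1) of genes averaging at least 1 FPKM, with Benjamini-Hochberg adjustment over all genes and a threshold of 0.05; fold changes understate those of low genes. Titles gave each sample's line and day. The fits were run on simulated reads that held neither the replicate 1 shift nor the day 0 length difference, so that run does not cover those. The members and lists were chosen with earlier results of these data known. Besides the 8 members, named genes are the 5 nearest profiles to Sdhc, the 3 nearest to Sdhaf4 and called list genes. Genes overlapping a member are named too, as are Msln and Slc25a10, which were not called. Fos, Jun and Egr1 were chosen after their values were seen. Deviations of same-numbered day 16 libraries from their line's mean correlated at 0.381, 0.272 and 0.333, and the number was used as a block in an alternative. Exp replicate 3 with ctl replicate 2 (0.398) and exp replicate 2 with ctl replicate 3 (0.209) correlated too, so the values set replicate 1 apart and do not separate numbers 2 and 3. Copies were searched with BLAST 2.17.0, and coordinates are 1-based. Other alternatives changed the pseudocount, filter, scaling, gene-length centring, voom on recovered reads, and the libraries or days left out. Intervals on ratios cover counting error only.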

Additional observations from a re-analysis of the deposited data

How the results depend on the processing

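Changing the pseudocount, filter, scaling, model, libraries or days gave 912 recomputed values. Direction and call were kept in 841, the call ended in 23 and the direction turned in 48. The 48 were all for results that were not called, and most of the 841 were results that stayed not called. The 23 all fell on called results. For Sdhc at day 16 the call was kept in 10 alternatives and lost in 7. For Sdhc over days 5 to 20 it was kept in 22 and lost in 1, and since day 0 in both lines kept in 17 and lost in 10. For Sdhaf4 at day 16 it was kept in 12 and lost in 5. No Sdhc value changed sign. At day 16 it was -0.62 with no filter on low values (adjusted p = 0.0614) and -0.62 after median-of-ratios rescaling (0.052), and -0.73 to -0.49 with 1 library left out. Over days 5 to 20 it was -0.21 without day 16 (0.0698). Its change since day 0 in both lines was -0.97 without day 9 (0.0625), -0.99 without day 12 (0.0611), -0.99 without day 20 (0.0603), -0.97 with the replicate block (0.0792), -0.78 with length-class centring (0.0832) and -0.78 with both (0.258). It was -1.14 in the exp line alone (0.0905), -0.80 in the ctl line alone (0.172), and -0.82 and -0.76 after centring. Sdhaf4 at day 16 was -0.46 to -0.38 with 1 library left out, with the call lost without exp replicate 2 or 3 or ctl replicate 2 or 3 (adjusted p = 0.0941 to 0.135).

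Leaving out 1 library at day 16 gave -0.0251 to 0.0133 for Sdha, -0.011 to 0.0641 for Sdhb, -0.0875 to 0.0654 for Sdhd, 0.103 to 0.327 for Sdhaf1, -0.0299 to 0.0511 for Sdhaf2 and -0.0713 to 0.0984 for Sdhaf3. Median-of-ratios rescaling gave 0.0026 for Sdha and quantile normalization -0.0089 for Sdhd. Over days 5 to 20 Sdha was -0.0039 with quantile normalization, -0.0132 without day 5, -0.0251 without day 9 and -0.0021 with length-class centring, with or without the block, and Sdhb was -0.0291 without day 9 and -0.0040 with length-class centring, with or without the block. Without day 16 replicates 2 and 3, Sdhaf1 was -0.0429 and Sdhaf4 0.0224, and without day 16 they were -0.0551 and 0.101. The slope difference of Sdha was 0.0612 with median-of-ratios rescaling, 0.0694 with quantile normalization, 0.0905 with voom, -0.0274 to 0.000714 with 1 library left out, 0.0925 without day 5, 0.0432 without day 9, 0.133 without day 20 and 0.0249 with length-class centring; the last gave 0.105 for Sdhb and 0.0142 for Sdhaf1, with or without the block. The change in both lines for Sdhb was 0.10 with centring, with or without the block, 0.0222 in ctl alone, and 0.131 in exp and 0.0647 in ctl alone after centring; for Sdhaf4 it was 0.0158 in ctl alone and 0.0718 there after centring. Exp minus ctl since day 0 was 0.0651 for Sdhb and 0.0066 for Sdhd with centring, with or without the block. The cause of these moves was not tested.

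Counts over all genes moved more. At day 16, 765 genes were called, 1599 without exp replicate 1, 197 to 242 without exp replicate 2 or 3 or ctl replicate 2 or 3, and 493 at a mean of at least 5 FPKM, where fewer genes were tested. For the slope 26 were called, 49 with quantile normalization, 40 with length-class centring, 2 without exp replicate 2, 1 without day 0 and 0 without day 16. For the change in both lines 23 were called, 4 with the block, 1 with the block and centring, 47 with no filter and 108 without day 16 replicates 2 and 3. For exp minus ctl since day 0, 0 were called, 187 with the block, 136 with no filter, 37 without day 9 and 21 without day 5. The block changed no other call of a member but those given. Voom moved the median of all genes by 0.10 in that last comparison. Length-class centring and the fits of 1 line alone were chosen after seeing the data. Of the 8 genes, Sdhaf3 had the fewest reads, 75 to 191 per library.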
